A study of Mus musculus with 6 samples.

Results

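The cytosolic and mitochondrial heat shock chaperones were followed in the epithelium of the mouse common bile duct, the channel that carries bile from the liver to the intestine. The set holds 43 genes of the 37008 named on the array: heat shock proteins of the HSP70, HSP110, HSP90 and small families, J proteins, BAG proteins, both parts of the mitochondrial chaperonin, 5 subunits of the cytosolic chaperonin, co-chaperones of HSP90, and the heat shock factors Hsf1 and Hsf2. Every probe that carries one of these gene names and is no control was taken, which gave 94 of 56605 probes. In the DOX+ group were 3 samples from C57BL/6 mice that carry the iFGF10 construct, given 0.02% doxycycline in the drinking water for 5 days to switch on FGF10, a secreted fibroblast growth factor that acts on epithelia. In the DOX- group were 3 samples from C57BL/6 mice that drank plain water for the same 5 days. The source names call the DOX- animals untreated iFGF10 mice, while the descriptions of their samples carry WT and a pair of numbers. The labels thus do not settle whether the controls carried the construct or whether each control is a pool of animals, and they do not name the promoter or cell type that drives the construct. Doxycycline and the induced gene cannot be told apart here, because no doxycycline-treated group without the construct was analysed.

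Heat shock proteins are molecular chaperones: they bind unfolded proteins, keep them from aggregating and help them fold. HSP70 works in an ATP-driven cycle with J proteins, which deliver substrates and stimulate its ATPase, and with HSP110 and BAG proteins, which release ADP from it, while HSP90 finishes the folding of kinases and steroid receptors and the chaperonins fold proteins inside a closed chamber. Part of the family is made at all times, and part is switched on by heat, oxidants and other protein-damaging stress, when the transcription factor HSF1 binds heat shock elements, inverted repeats of a short GAA-type unit, in their promoters.

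Levels are given as log2 of the processed spot intensity minus the 75th percentile of its own array, so that 0 is the level of that percentile and 1 unit is a factor of 2. Levels of different genes come from different probes and are not compared. On each array 55.93% to 61.9% of spots were well above background and no spot was saturated. None of the 6 arrays had any of the 3 Fgf10 probes well above background, so the induced gene itself gives no check of the labels. Of a 15-gene list of bile duct epithelium markers, 12 were well above background on all 6 arrays, among them Epcam, Krt8, Krt18 and Krt19. RNA of other cells was present as well: all 10 fibroblast markers and 14 of 15 smooth muscle markers were well above background on all 6 arrays. In such bulk tissue, fewer cells of a type and less RNA per cell cannot be told apart. All 6 arrays were on 1 slide, with the DOX+ arrays and DOX- replicate 1 in its first row and DOX- replicates 2 and 3 in its second. A fit blocked by slide row therefore takes its difference from the DOX+ arrays and DOX- replicate 1 alone. It cannot tell an effect of the row from that 1 sample.

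The heat shock chaperones lay mostly lower in the DOX+ samples, and the inducible HSP70 gene Hspa1b fell 3.57-fold. Of the 42 members that could be tested, 37 had a lower mean in DOX+ (88.1%, against 51.8% of all 20736 genes tested) and 5 a higher one. The median log2 difference was -0.32 over the members and -0.01 over all genes. On DOX+ replicates 1, 2 and 3 the median deviation of the members from their DOX- mean was -0.23, -0.33 and -0.26. On DOX- replicates 1, 2 and 3 it was -0.19, -0.01 and 0.21, so DOX- replicate 1 lay close to the DOX+ arrays. The 3 members that were at least 2-fold lower were Hspa1b, Hspa1a and Hsph1, where 2.49% of all genes were. With limma and Benjamini-Hochberg adjustment over all genes, 1 member passed the threshold of 0.05, Hspa1b, beside 0.0193% of all genes called lower, 0.0193% called higher and 0.0386% called in either direction. At an unadjusted p under 0.05, 9 members were lower and 0 were higher, against 6.32% and 7.02% of all genes. In 14 members every DOX+ sample lay below every DOX- sample, which held for 10.9% of all genes, and in 0 members was the order the other way, which held for 10.1%. The members were chosen as a family and share regulators, so these counts do not stand for independent genes.

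**Figure D1:**
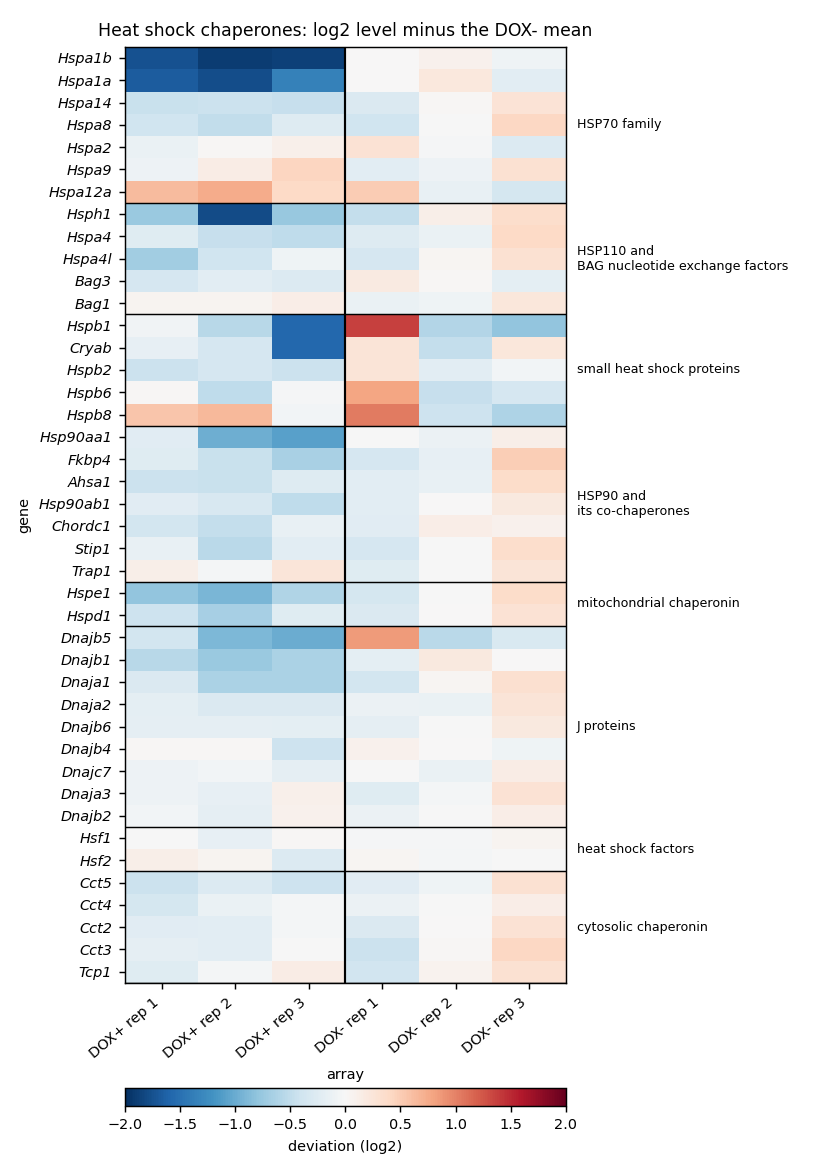
Deviation of each of 42 heat shock chaperone genes (rows, grouped by role) from its DOX- mean, in log2 units, on the 3 DOX+ and 3 DOX- arrays (columns). Blue is lower and red is higher. Hspa1b is the darkest blue row on each of the 3 DOX+ arrays and Hspa1a is dark on all 3, Hsph1 is dark on DOX+ replicate 2, Hspb1 and Cryab are dark on DOX+ replicate 3, and the small heat shock proteins and Dnajb5 are red on DOX- replicate 1.

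The inducible HSP70 genes are a pair of near-identical copies that lie next to each other on chromosome 17, and they are the classical targets of HSF1. The level of Hspa1b was 1.15, 1.01 and 1.03 in DOX+ replicates 1, 2 and 3, and 2.91, 2.98 and 2.81 in DOX- replicates 1, 2 and 3. The groups were far apart and the samples within each lay close together, with an SD of 0.077 in DOX+ and 0.0872 in DOX- (n = 3 each). The difference was -1.84 (SE 0.12, 95% confidence interval -2.13 to -1.55, limma adjusted p = 0.0246), a p ranked 3 among all genes tested. The level of Hspa1a was 1.59, 1.48 and 1.90 in DOX+ and 3.27, 3.46 and 3.05 in DOX-. These groups did not overlap either, and the difference was -1.60 (SE 0.18, 95% confidence interval -2.03 to -1.17), a 3.03-fold lower mean that missed the threshold (limma adjusted p = 0.0922). The call of Hspa1b was lost in several alternatives in which its difference stayed between -1.85 and -1.77: limma adjusted p was 0.317 when blocked by slide row, 0.231 with a replicate block, 0.0583 with quantile normalisation and with the authors' processed values, 0.093 with no filter on dim probes, and 0.0547, 0.0568 and 0.258 without DOX+ replicate 2, DOX- replicate 1 and DOX- replicate 2. Over all its alternatives the adjusted p ran from 0.00479 to 0.317.

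Each gene of the pair had a single probe, so the first 30 bases of both are shown to let a reader see that they are different sequences. On the mm9 build the Hspa1a probe lies at chr17:35106766-35106825 and the listed span of the Hspa1b probe is chr17:35093374-35093405, both on the minus strand.
Hspa1a probe: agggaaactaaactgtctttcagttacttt
Hspa1b probe: taatctaagtaggttaaagatggtgtagtc
The full probes of 60 bases differed by an edit distance of 34. Cross-hybridisation between the copies was not tested, so the split of the signal between Hspa1a and Hspa1b is uncertain.

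The promoters of the pair are shown to let a reader compare them, and a link between their sequence and the levels was not tested. They are from RefSeq on GRCm38.p6, the 250 bases before each start, read on the minus strand from chr17:34972157-34972406 for Hspa1a and chr17:34959239-34959488 for Hspa1b, with capitals for runs of at least 2 alternating GAA and TTC units.
Hspa1a promoter: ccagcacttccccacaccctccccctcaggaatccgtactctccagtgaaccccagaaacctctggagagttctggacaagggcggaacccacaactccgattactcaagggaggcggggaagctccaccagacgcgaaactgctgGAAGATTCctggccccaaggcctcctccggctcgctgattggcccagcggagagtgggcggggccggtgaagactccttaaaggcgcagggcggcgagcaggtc
Hspa1b promoter: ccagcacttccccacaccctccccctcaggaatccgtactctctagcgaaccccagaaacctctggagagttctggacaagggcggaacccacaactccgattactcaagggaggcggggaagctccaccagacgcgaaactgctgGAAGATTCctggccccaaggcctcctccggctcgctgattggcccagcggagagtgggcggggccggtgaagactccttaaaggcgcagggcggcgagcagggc
The windows were identical at 247 of 250 positions. Each held 1 such run, GAAGATTC, from 104 to 97 bases before the start.

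The other HSP70 genes showed no such separation. Hspa8, the constitutive HSP70 of the cytosol, was at 5.15, 5.05 and 5.28 in DOX+ and 5.14, 5.53 and 5.95 in DOX-. The groups overlapped, since DOX- replicate 1 lay among the DOX+ samples, and the difference was -0.38 (SE 0.22, limma adjusted p = 0.498). Blocked by slide row it was 0.02. Hspa14, a ribosome-associated HSP70 that works with newly made chains, was at 2.28, 2.29 and 2.26 in DOX+ and 2.43, 2.74 and 2.99 in DOX-. Its groups did not overlap and the difference was -0.44 (SE 0.17, limma adjusted p = 0.348), -0.16 when blocked by slide row, but its 4 kept probes did not share a sign. Hspa9, the HSP70 of the mitochondrial matrix, differed by 0.15 (SE 0.21, limma adjusted p = 0.779). The testis-enriched Hspa2 differed by 0.00, with a 95% confidence interval from -0.43 to 0.43. Hspa12a, a distant member of the family, had the largest difference upwards among all members tested, 0.59 (SE 0.25, limma adjusted p = 0.381). Hspa1l, another HSP70 gene of the chromosome 17 cluster, had 1 probe that stayed near background on every array, and was not tested. Over the 7 measured HSP70 genes, the median was -0.38 with 5 lower and 2 higher means, or 4 and 3 after quantile normalisation.

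HSP110 and BAG proteins act as nucleotide exchange factors of HSP70. Hsph1, the heat-inducible HSP110, was at 1.73, 0.69 and 1.72 in DOX+ and 2.01, 2.60 and 2.82 in DOX-. The groups did not overlap, with DOX+ replicate 2 far below the other DOX+ samples. The difference was -1.09 (SE 0.35, 95% confidence interval -1.96 to -0.23, limma adjusted p = 0.301), and -0.62 when blocked by slide row. Its other kept probe gave -1.19. The constitutive HSP110 Hspa4 differed by -0.41 and the heat-inducible Hspa4l by -0.40, both with overlapping groups. A further kept probe of each had groups that did not overlap, with -0.44 for Hspa4 and -0.36 for Hspa4l. The groups of their remaining kept probes overlapped, among them a probe of Hspa4 with -0.02. Bag3, a stress-induced co-chaperone that links HSP70 to selective autophagy, was lower in every DOX+ sample with a difference of -0.27 (SE 0.14, limma adjusted p = 0.453). Bag1 differed by 0.08. Of these 5 genes 4 had a lower mean, and the median was -0.40.

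J proteins bring substrates to HSP70. Dnajb1, the main heat-inducible one, was at 3.32, 3.14 and 3.25 in DOX+ and 3.67, 4.07 and 3.89 in DOX-. The groups did not overlap and the difference was -0.64 (SE 0.15, 95% confidence interval -0.996 to -0.285, limma adjusted p = 0.207), or -0.44 when blocked by slide row. Dnaja1 differed by -0.52 (SE 0.22, limma adjusted p = 0.374), with overlapping groups. Dnajb5 had the lowest difference among the constitutive members, -0.75, with an SE of 0.39 and overlapping groups. The remaining 6 J proteins lay between -0.25 for Dnaja2 and -0.05 for Dnajb2. In Dnajb6 the groups did not overlap, but the highest DOX+ and the lowest DOX- value were both 1.92, and the difference was -0.19 (SE 0.14). All 9 J protein means were lower with a median of -0.19, but 7 lower and 2 higher after quantile normalisation and in the authors' own values.

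HSP90 works with co-chaperones that set its ATPase and deliver its clients. The heat-inducible Hsp90aa1 was at 4.01, 3.26 and 3.16 in DOX+ and 4.24, 4.12 and 4.36 in DOX-. DOX+ replicate 1 lay just under the DOX- samples and the other DOX+ samples well below. The difference was -0.77 (SE 0.25, 95% confidence interval -1.36 to -0.17, limma adjusted p = 0.299), and a further kept probe gave -0.64. The constitutive Hsp90ab1 was at 6.18, 6.08 and 5.91 in DOX+ and 6.21, 6.42 and 6.60 in DOX-. Its groups did not overlap, though DOX- replicate 1 was close to the DOX+ samples, and the difference was -0.35 (SE 0.16, limma adjusted p = 0.398). Ahsa1, which stimulates the ATPase of HSP90, differed by -0.38, the HSP70-HSP90 adaptor Stip1 by -0.31, the immunophilin Fkbp4 by -0.45 and Chordc1 by -0.34. The mitochondrial HSP90 Trap1 differed by 0.10. Of these 7 genes 6 had a lower mean, and the median was -0.35.

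**Figure D2:**
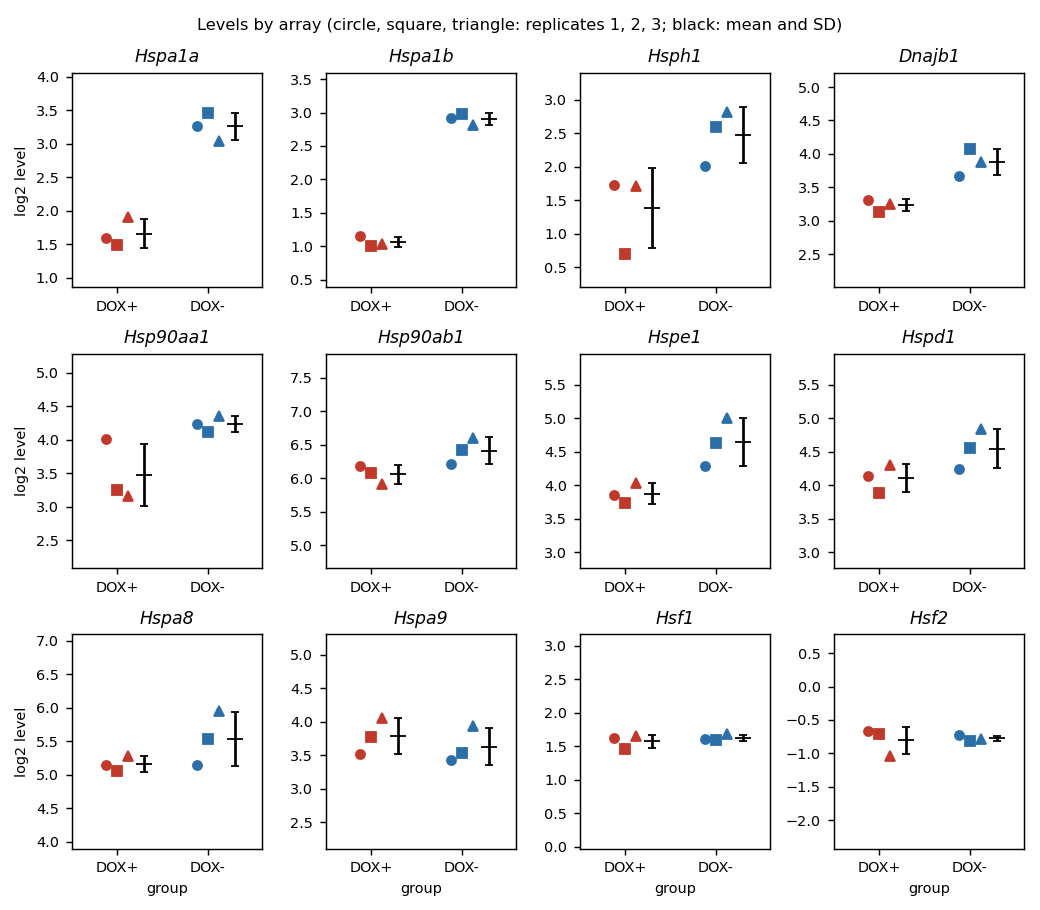
Level (log2, relative to the array's 75th percentile, y axis with the same span but different limits in each panel) of 12 chaperone and heat shock factor genes in DOX+ (red) and DOX- (blue). Each mark is 1 array and the bar is the mean with its SD (n = 3). The groups are well apart for Hspa1a and Hspa1b, do not overlap for Hsph1, Dnajb1, Hsp90aa1, Hsp90ab1 and Hspe1, and overlap for Hspd1, Hspa8, Hspa9, Hsf1 and Hsf2.

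The mitochondrial chaperonin folds imported proteins in the matrix and is made of HSP60, encoded by Hspd1, and its lid HSP10, encoded by Hspe1. Hspe1 was at 3.86, 3.73 and 4.04 in DOX+ and 4.29, 4.64 and 5.01 in DOX-. The groups did not overlap and the difference was -0.77 (SE 0.21, 95% confidence interval -1.28 to -0.26, limma adjusted p = 0.249), with -0.68 and -0.74 from its other probes and -0.41 when blocked by slide row. Hspd1 was at 4.13, 3.89 and 4.31 in DOX+ and 4.25, 4.55 and 4.84 in DOX-. The groups overlapped between DOX+ replicate 3 and DOX- replicate 1, and the difference was -0.44 (SE 0.20, limma adjusted p = 0.403), -0.14 when blocked by slide row. The other mitochondrial members, Hspa9, Trap1 and the J protein Dnaja3 (-0.05), did not share this size of difference. The median over all 5 mitochondrial members was -0.05, and it was 0.06 with quantile normalisation and with the authors' processed values.

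Hspd1 and Hspe1 are transcribed in opposite directions from a shared promoter, shown from the side of Hspe1 because it carries a run of 4 heat shock units. The runs in the promoters of Hspa1a, Hspa1b and Hsph1 were shorter, while Chordc1 had a longer one, of 5 units, in its promoter window. The Hspe1 sequence is the 250 bases before the start, from RefSeq on GRCm38.p6, at chr1:55087898-55088147 on the plus strand, with capitals for the run.
Hspe1 promoter: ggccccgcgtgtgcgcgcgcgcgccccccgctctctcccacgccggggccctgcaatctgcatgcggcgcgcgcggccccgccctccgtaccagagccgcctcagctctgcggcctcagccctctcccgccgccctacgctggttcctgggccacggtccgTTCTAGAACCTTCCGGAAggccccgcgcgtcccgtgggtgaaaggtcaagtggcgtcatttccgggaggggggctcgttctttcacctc
The run has 4 alternating units and lies from 89 to 72 bases before the start of Hspe1. The window of Hspd1, which overlaps it on the other strand, holds the same run from 144 to 127 bases before its own start.

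Small heat shock proteins bind unfolding proteins without ATP and are abundant in muscle. Hspb1 was at 3.96, 3.47 and 2.47 in DOX+ and 5.39, 3.45 and 3.25 in DOX-. DOX- replicate 1 stood high, the other DOX- samples lay among the DOX+ samples, and the difference was -0.73 (SE 0.66, limma adjusted p = 0.66). Cryab, or alphaB-crystallin, was at 2.57, 2.40 and 1.18 in DOX+ and 3.00, 2.26 and 2.96 in DOX-. Its groups overlapped and DOX+ replicate 3 lay lowest, with a difference of -0.69 (SE 0.41, limma adjusted p = 0.508). Hspb2 was at 0.13, 0.24 and 0.14 in DOX+ and 0.83, 0.36 and 0.52 in DOX-, without overlap, and differed by -0.40 (SE 0.16, limma adjusted p = 0.36). Hspb6 differed by -0.17 and Hspb8 by 0.38, the latter being the only heat-inducible member with a higher mean in DOX+.

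The sample with the highest small heat shock proteins also had the highest smooth muscle markers. The mean deviation of the 15 markers from their DOX- mean was 0.72, 0.27 and -0.25 in DOX+ and 1.52, -0.80 and -0.72 in DOX-, so DOX- replicate 1 was highest and the other controls lowest. For the 5 small heat shock proteins it was -0.02, -0.22 and -0.73 in DOX+ and 0.74, -0.43 and -0.31 in DOX-, with DOX- replicate 1 highest again. The log2 of the summed marker level ran from 6.57 to 7.67 in DOX+ and from 6.12 to 8.45 in DOX-, and 10 of the 15 markers had a higher mean in DOX+ (median 0.22, and -1.28 when blocked by slide row). Without DOX- replicate 1 the median difference of the small heat shock proteins was -0.05 in place of -0.40, and that of the smooth muscle markers was 1.00. When blocked by slide row, a fit that leaves DOX- replicate 1 as the one control beside the DOX+ arrays, Hspb1 differed by -2.09, Hspb8 by -0.65 and the J protein Dnajb5, highest in the same control, by -1.60. The part of smooth muscle RNA in these values was not tested.

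**Figure D3:**
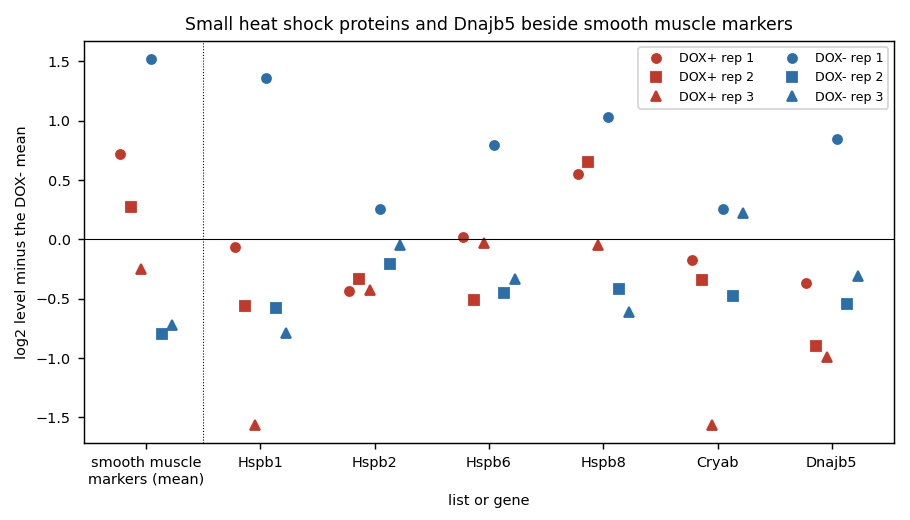
Deviation from the DOX- mean (log2, y axis) for the mean of 15 smooth muscle markers, the 5 small heat shock protein genes and Dnajb5 (x axis). Each mark is 1 array, red for DOX+ and blue for DOX-, with the shape giving the replicate. DOX- replicate 1 (blue circle) is highest in each column.

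The cytosolic chaperonin folds actin and tubulin. Its 5 measured subunits had lower means, from -0.37 for Cct5 to -0.04 for Tcp1, with a median of -0.16. Quantile normalisation and the authors' own values gave 4 lower and 1 higher. Blocked by slide row, 2 were lower and 3 higher, and the median was 0.13. Of the 5, Cct5 alone had groups that did not overlap.

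The heat shock factors themselves lay close to equal. Hsf1, the master activator of the heat shock genes, was at 1.61, 1.46 and 1.65 in DOX+ and 1.60, 1.60 and 1.68 in DOX-. These groups overlapped and the difference was -0.05 (SE 0.12, 95% confidence interval -0.34 to 0.23, limma adjusted p = 0.877). Hsf2, a related factor that can bind together with HSF1, was at -0.66, -0.71 and -1.04 in DOX+ and -0.73, -0.81 and -0.79 in DOX-. DOX+ replicate 3 was lowest and the difference was -0.03 (SE 0.14, 95% confidence interval -0.38 to 0.32, limma adjusted p = 0.949). Neither interval excludes a modest difference, and mRNA level does not report the activity of HSF1, which is set by trimer formation and phosphorylation.

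Members that textbooks describe as heat-inducible were set beside those described as constitutive. The classes were chosen with earlier results of these data known. The 18 heat-inducible members had a median difference of -0.49 (range -1.84 to 0.38), with 17 lower means. The 24 measured constitutive members had a median of -0.15 (range -0.75 to 0.59), with 20 lower means, or 16 with quantile normalisation. At an unadjusted p under 0.05 were 7 of the heat-inducible and 2 of the constitutive members, all lower, where 6.32% of all genes were, so that the constitutive count was near the share over all genes. Without overlap and lower were 8 heat-inducible and 6 constitutive members, against 10.9% of all genes. A narrower core of 8 heat-inducible genes, Hspa1a, Hspa1b, Hsph1, Dnajb1, Hsp90aa1, Hspb1, Cryab and Bag3, had a median of -0.75 with all 8 means lower. In 6 of the 8 the groups did not overlap, while those of Hspb1 and Cryab did. Without DOX- replicate 1 the difference of Hspb1 was -0.05. The core leaves out Hspb8, the only heat-inducible member with a higher mean, so its count depends on that choice. Leaving out Hspa1a and Hspa1b, an alternative chosen after seeing the data, the heat-inducible median was -0.44. Blocked by slide row, the class medians were -0.43 and -0.04.

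The same order of the classes was seen on each DOX+ array. The mean deviation from the DOX- mean was -0.46, -0.67 and -0.69 for the heat-inducible members on DOX+ replicates 1, 2 and 3, and -0.14, -0.18 and -0.12 for the constitutive members. The heat-inducible mean thus lay below the constitutive one by -0.32, -0.49 and -0.57 on the DOX+ arrays, while on the DOX- arrays this difference was 0.04, 0.03 and -0.06. The DOX- values cancel out by construction, because deviations are taken from the DOX- mean, so only their spread is informative. Without Hspa1a and Hspa1b the class difference was -0.16, -0.35 and -0.45 on the DOX+ arrays. These are descriptions of the members, with no test of one class against the other.

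**Figure D4:**
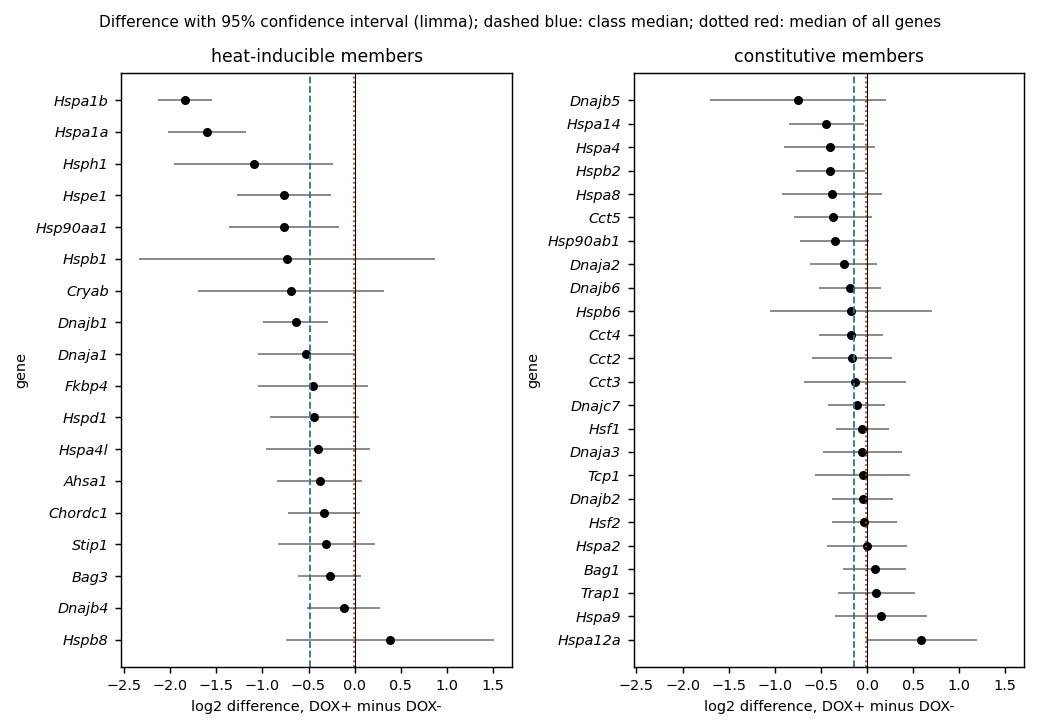
Log2 difference, DOX+ minus DOX-, of each of the 18 heat-inducible (left) and 24 constitutive (right) members, with the 95% confidence interval from limma (n = 3 per group). The dashed blue line is the class median, -0.49 on the left and -0.15 on the right, and the dotted red line is the median of all genes, -0.01. The intervals of Hspa1b and Hspa1a lie below those of most other members.

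The promoters of both classes were searched for heat shock elements, with no test. A heat shock element of 2 units was searched as GAANNTTC or TTCNNGAA and one of 3 units as GAANNTTCNNGAA or TTCNNGAANNTTC, on both strands, so that each longer match also holds shorter ones. RefSeq promoter windows, from 250 bases before to 50 after the start on GRCm38.p6, were at hand for 35 of the 43 members. The element of 2 units was found in 12 of 16 heat-inducible genes (75%) and in 4 of 19 constitutive genes (21.1%), against 17% of all genes. The heat-inducible genes without it were Dnajb1, Ahsa1, Stip1 and Hspa4l, while Hsp90aa1 and Cryab had no window. Among the 12 heat-inducible genes with the element, Hspd1 and Hspe1 hold the same run, and Hspa1a and Hspa1b have nearly identical windows. The 12 are thus not all independent promoters. In promoter windows, 36% of the 50 member windows and 15.1% of all 32851 windows held the element of 2 units. The element of 3 units was found in Chordc1, Hspd1, Hspe1, Hsph1 and Dnajb6, in 14% of the member windows and 0.603% of all windows. A match is a stretch of letters and not a shown binding site, and a window without one says nothing of sites elsewhere.

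Over all kept probes of the members the direction was mostly the same. Of the 85 member probes kept, 73 were lower and 12 higher. These and the following probe counts include the 42 probes that stood for the genes, so they are not a separate check. The limma fit over all 31719 kept probes called 1 of them, that of Hspa1b, where 0.0189% of all probes were called lower. At an unadjusted p under 0.05, 15 member probes were lower (5.63% of all probes), and in 23 every DOX+ sample lay below every DOX- sample (9.44% of all probes). Of the 22 members with more than 1 kept probe, 17 had probes of 1 sign, and Cct4, Dnajb4, Dnajb6, Hspa14 and Tcp1 had both. In Dnajb4 the probe used for the gene gave -0.12 and another gave 0.29. Hsph1, Hspe1 and Hsp90aa1 each had kept probes that shared a sign.

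A list of 59 further chaperone genes was set beside the members, with no test between them. Of the 55 measured, 39 had lower and 16 higher means, with a median of -0.14, and 33 were lower with quantile normalisation with a median of -0.06. By limma, 0 of the 55 were called, and at an unadjusted p under 0.05 were 6 lower and 4 higher, against 6.32% and 7.02% of all genes. Without overlap were 13 lower and 6 higher, against 10.9% and 10.1% of all genes. The smallest p-values among lower genes were those of Grpel2 (-0.44), a nucleotide exchange factor of the mitochondrial HSP70, Pfdn4 (-0.41), a prefoldin subunit, and Dnajc2 (-0.44), a ribosome-bound J protein. Among higher genes they were those of Cct6b (1.05), a testis-enriched chaperonin subunit, Hsf4 (1.30), a heat shock factor known from the lens detected above background on only 1 of the 3 DOX- arrays, and Hspa12b (0.67), a distant HSP70 of endothelium.

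Several other gene lists differed beside the chaperones. Of 12 measured markers of bile duct epithelium, 11 had a lower mean in DOX+ (median -0.22), and the log2 of their summed level ran from 9.09 to 9.26 in DOX+ and from 9.28 to 9.72 in DOX-, without overlap. All 14 measured proliferation genes had a lower mean (median -1.25), with summed levels from 3.05 to 3.93 in DOX+ and 3.58 to 4.72 in DOX-. Only 11 of these 14 passed the background limit on every array, and the others were kept through 1 group alone. Restricting the list to those 11 left each mean lower and gave a median difference of -1.15. With slide row as a block, the proliferation median shrank to -0.53, and 1 of the 14 genes turned higher. All 10 endothelial markers (median 0.54) and all 9 measured mast cell markers (median 2.18) had a higher mean. The log2 summed mast cell level ran from 3.25 to 6.72 in DOX+ and from 1.44 to 2.68 in DOX-. Of the mast cell markers, 7 were well above background on all 6 arrays, and these 7 were all higher with a median of 2.17. The rest were kept through 1 group alone, which favours a higher mean in that group. Pancreatic acinar markers were lowest in DOX- replicate 1, with log2 summed levels from 5.90 to 7.81 in DOX- and 6.64 to 7.30 in DOX+. Immediate early genes such as Fos and Egr1, which like heat shock genes respond within minutes to tissue handling, had 11 lower and 8 higher means of 19 (median -0.27). Their mean deviation was -0.35, 0.04 and -0.58 in DOX+ and 0.32, 0.14 and -0.46 in DOX-, so the groups of this mean overlapped. Single genes of the list differed more: Fos was at -0.37, 0.42 and -0.68 in DOX+ and 0.85, 1.76 and 0.45 in DOX-. These groups did not overlap, with a difference of -1.22 (SE 0.42, limma adjusted p = 0.321). Egr1 differed by -1.60 (SE 0.67, limma adjusted p = 0.378), with overlapping groups. Of the 19 genes 2, Fos and Klf6, were lower in every DOX+ sample and 0 higher, against 10.9% and 10.1% of all genes. The lower count was thus near the share over all genes. The limma fit called 0 of the 19. At an unadjusted p under 0.05 were 2 lower and 0 higher, against 6.32% and 7.02% of all genes. Klf6, Fos and Egr1 were chosen after their values were seen. The part of cell composition, proliferation and handling in the chaperone values was not tested.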

How the data were processed

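Total RNA from 6 samples of common bile duct epithelium was labelled with Cy3 and hybridised to 1-colour Agilent arrays with probes of 60 bases. The authors deposited scanner files of spot intensity with 0 or 1 flags. The software was Agilent Feature Extraction, given as 10.7.1.1 in the file headers and as 9.5.1.1 in the submitters' processing notes. Its processed intensity, per the file headers, has the background subtracted within each array and no adjustment between arrays. The authors' table of processed intensity, on a linear scale and quantile-normalised as its columns show, served as an alternative.

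Levels were computed as log2 of the processed intensity, less the 75th percentile of each array, with 50 to 64 outlier spots per array left out, none of them of a member. Spots of a probe were averaged, and a probe was kept if either group had it well above background on each of its 3 arrays (31719 of 56605). The probe with the highest mean stood for each gene (20736 genes). Names came from the GRCm38.p6 gene table: an accession matched 32994 probes, a current symbol 10224 and a former symbol 520, while 12867 kept the file's name. The comparison used limma 3.58.1 under R 4.3.3 (lmFit, then eBayes, with group alone, two-sided, Benjamini-Hochberg over all genes, threshold 0.05). The 3 arrays per group limit the precision, with a median standard error of 0.185 for a log2 difference. On simulated data with the same 20736 genes, 10 draws and 200 changed genes per draw, the test recovered 24.2% of 2-fold, 76.4% of 4-fold and 91.2% of 8-fold changes, and 4.18% of its calls were false.

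The members, their classes and roles, the gene lists and the tests were chosen with earlier results of these data known. Values on every array are given for members with an adjusted p under 0.05, for those with an unadjusted p under 0.05 whose groups do not overlap, and for the main inducible and constitutive chaperones and heat shock factors. Of the further chaperone genes, the 3 with the smallest p in each direction are named. The labels do not tie samples to single animals beyond the stated 3 mice per group, so the p-values reflect only the spread among the samples, which may be technical. Lists of fibroblast, macrophage and dendritic cell, T and B cell and hepatocyte markers had medians of 0.33, -0.06, 0.11 and -0.29, with 0 genes called. Same-numbered replicates did not deviate together (correlations of -0.09, -0.13 and -0.02), so the numbers were not used as pairs. Alternatives covered background correction, normalisation, filtering, the probe chosen, gene names, slide row, array weights, a replicate block and each array left out.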

Additional observations from a re-analysis of the deposited data

How the results depend on the processing

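Of the 42 tested members, 27 kept the sign of their difference under all 11 alternative settings and with each of the 6 arrays left out in turn. Over all genes, 8 were called, and this became 2 with quantile normalisation and with the authors' processed values, 1 with no filter on dim probes, 5 with probes well above background on all 6 arrays, 375 with array weights, and 0 to 30 with 1 array left out. It was 0 when blocked by slide row (1409 genes at an unadjusted p under 0.05 by limma) and 0 without DOX- replicate 2 (1554 genes). Members called were 0 with quantile normalisation, the authors' values, no filter or the slide row, 2 with array weights (Hspa1a and Hspa1b), and 0 to 1 with 1 array left out. The call was lost without DOX+ replicate 2, DOX- replicate 1 or DOX- replicate 2. Array weights were fitted gene by gene because the likelihood fit did not converge, and they gave DOX- replicate 2 a weight of 4.90.

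The replicate number as a block left 0 genes called (2257 at an unadjusted p under 0.05 by limma) and 0 members called, with an adjusted p of 0.231 for Hspa1b. Since same-numbered samples did not deviate together, the block is only an arithmetic alternative.

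The median difference of the heat-inducible members was -0.38 with quantile normalisation and with the authors' values, -0.75 for the core of 8 members, and -0.59 to -0.36 with 1 array left out. That of the constitutive members was -0.0588 with quantile normalisation, -0.0582 with the authors' values, -0.0412 when blocked by slide row, and -0.234 to -0.0632 with 1 array left out. The sign of Hspa8 turned when blocked by slide row (0.0186), and that of Hsf2 with array weights (0.0305). With 1 array left out, Hsf1 ran from -0.0901 to 0.003 and Hsf2 from -0.104 to 0.0871, with the turned signs without DOX+ replicate 2 and DOX+ replicate 3. The cause of the turned signs of Hsf1 and Hsf2 was not tested. Of 255 alternative values of the 15 members given on every array, 242 kept direction and side of the threshold, 8 lost the call, 1 gained it and 4 turned. With 3 arrays per group, 24.2% of simulated 2-fold changes were called, so smaller differences of single members were mostly out of reach.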
